A study of Mus musculus with 9 samples.

Results

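The genes described here make cholesterol or control its synthesis through SREBP2, the transcription factor that switches the pathway on when sterols run low. They were taken by symbol from the deposited gene table, and 28 of its 22173 genes are members: 20 enzymes of the pathway from acetyl-CoA to cholesterol, 6 genes of sterol sensing and control, and 2 genes of sterol transport and storage. The enzymes include Ggps1, which lies on a side branch of the pathway. The study sequenced polyA RNA from mouse libraries labelled cholangiocyte, the epithelial cell of the bile ducts, with 3 libraries in each of 3 groups. One group had a sham operation (sham), one had its bile ducts ligated (BDL, bile duct ligation), and one had the same ligation together with senkyunolide A (BDL plus senkyunolide A, here SenA). In BDL the bile duct is tied off so that bile backs up into the liver, and senkyunolide A is a phthalide found in the roots of Ligusticum plants. All groups thus had surgery, and the libraries that received SenA also carried the ligation. The sources used here do not give strain, sex, age, dose, duration, the way the cells were isolated or the number of animals behind a library. Libraries are called by group and number as in the labels. Nothing states that libraries sharing a group are separate animals, so each p-value reflects only how these libraries scatter, and that scatter may be technical.

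Cholesterol synthesis starts with the joining of acetyl-CoA units to HMG-CoA, passes through mevalonate and the isoprenoid farnesyl diphosphate to squalene, and ends with the closing and trimming of the sterol ring. SREBP2 is held in the endoplasmic reticulum by its escort SCAP and the anchor proteins INSIG1 and INSIG2 while sterols are plentiful. When sterols fall, SCAP carries SREBP2 to the Golgi, where it is cut, and the freed part enters the nucleus and binds sterol elements in the promoters of the synthesis genes, usually beside NF-Y or Sp1. The liver makes much of the body's cholesterol and also turns it into bile acids, whose outflow the ligation blocks.

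The promoters of the genes were searched for the motifs that this system reads, and 5 promoters are shown because their genes were called higher after BDL. A promoter here is the 250 bases before an annotated gene start in RefSeq annotation of GRCm38.p6, and 23 of the 28 genes had 1 or more in the table used, 31 promoters in all. Each sequence is written 5′ to 3′ on the strand of the gene. Capitals mark the core of a sterol element, CACNCCA, and the NF-Y box, CCAAT, on either strand, so that an NF-Y box on the opposite strand reads ATTGG.

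Hmgcs1 chr13:119690101-119690350 (plus strand): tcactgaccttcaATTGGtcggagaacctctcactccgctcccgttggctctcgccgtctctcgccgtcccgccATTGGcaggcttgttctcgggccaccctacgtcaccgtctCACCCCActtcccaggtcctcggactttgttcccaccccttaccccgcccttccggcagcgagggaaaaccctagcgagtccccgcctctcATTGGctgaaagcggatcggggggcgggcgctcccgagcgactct
Srebf2 chr15:82147019-82147268 (plus strand): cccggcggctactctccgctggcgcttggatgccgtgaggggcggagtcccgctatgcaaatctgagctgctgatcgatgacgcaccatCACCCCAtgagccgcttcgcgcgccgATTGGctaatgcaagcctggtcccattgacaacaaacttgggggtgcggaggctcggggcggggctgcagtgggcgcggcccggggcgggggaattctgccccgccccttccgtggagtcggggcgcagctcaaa
Mvk chr5:114444019-114444268 (plus strand): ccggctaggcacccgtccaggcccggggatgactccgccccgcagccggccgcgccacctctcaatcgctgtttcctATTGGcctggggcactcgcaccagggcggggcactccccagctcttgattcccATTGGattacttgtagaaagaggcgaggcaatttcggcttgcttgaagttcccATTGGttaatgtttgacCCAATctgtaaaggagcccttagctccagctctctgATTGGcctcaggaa
Mvd chr8:122443423-122443672 (minus strand): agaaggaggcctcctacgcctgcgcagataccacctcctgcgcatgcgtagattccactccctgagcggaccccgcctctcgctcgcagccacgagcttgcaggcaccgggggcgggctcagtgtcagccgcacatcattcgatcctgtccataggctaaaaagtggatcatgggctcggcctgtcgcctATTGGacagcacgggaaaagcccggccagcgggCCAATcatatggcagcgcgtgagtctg
Lss chr10:76531355-76531604 (plus strand): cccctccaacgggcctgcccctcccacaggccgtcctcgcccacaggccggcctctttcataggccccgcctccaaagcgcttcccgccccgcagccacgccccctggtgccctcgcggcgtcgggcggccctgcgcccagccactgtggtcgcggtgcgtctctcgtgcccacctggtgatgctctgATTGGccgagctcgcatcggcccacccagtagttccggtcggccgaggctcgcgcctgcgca

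Hmgcs1 encodes cytosolic HMG-CoA synthase, and its sterol core stood at positions -136 to -130 counted from the start, with 3 NF-Y boxes around it. Srebf2 encodes SREBP2 itself and had a sterol core at -161 to -155 from its own start and 1 NF-Y box at -135 to -131. The promoters of Mvk, Mvd and Lss held no match to the sterol core in this window and had 5, 2 and 1 NF-Y boxes. Of the 23 genes, 21 (91.3%) held an NF-Y box in at least 1 promoter. The share was 40.7% of 7999 genes of the tested set with a promoter searched and 37.5% of all 27025 genes with one. The sterol core was present in 7 of 23 genes (30.4%), namely Acat2, Hmgcs1, Msmo1, Srebf2, Insig1, Insig2 and Erlin1, against 17.7% of the tested set and 17.4% of all genes. Both motifs stood together in 1 promoter for 6 genes (26.1%), against 6.38% and 5.84%. The Sp1 box GGGCGG was found in 21 genes (91.3%), against 64.0% and 35.4%. In the first Insig2 promoter the sterol core and an NF-Y box overlap. These are matches of letters and not measured binding sites, and no test was made of them.

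**Figure D1:**
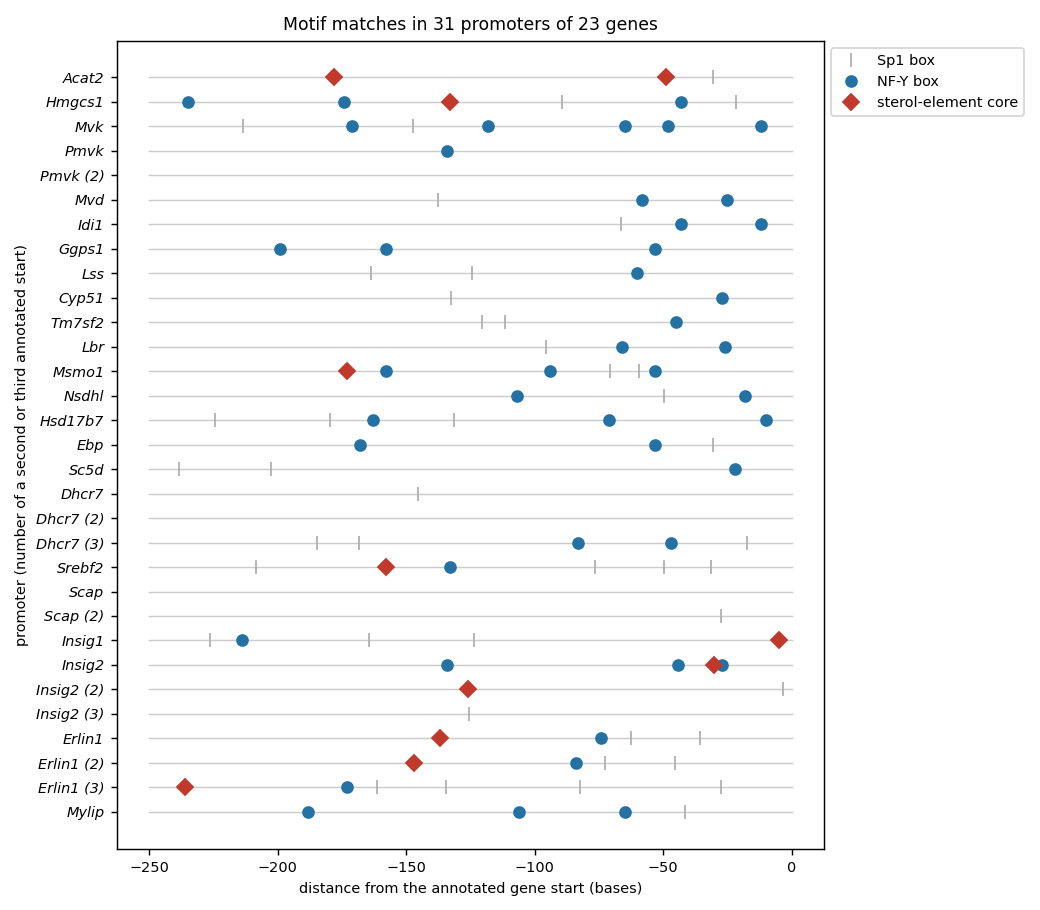
Matches to the NF-Y box (circles), the sterol-element core (diamonds) and the Sp1 box (bars) in 31 promoters of 23 genes, by distance in bases from the annotated start on the strand of the gene; a number after a name marks a further annotated start. NF-Y boxes are in 21 genes and sterol cores in 7.

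The values are FPKM, the fragments of a gene divided by its transcript length and the library total, from libraries estimated at 27.3 to 33.8 M (mega) fragments. Tests were made with limma on log2(FPKM + 1) over the 9884 genes whose mean FPKM reached 1, all 28 members among them, and a call is a Benjamini-Hochberg adjusted p under 0.05 over that set. Differences (log2, ± SE) are on this scale, which understates changes of low genes. The cell label was checked against markers. Hepatocyte genes made up 16.1% to 20.6% of the summed FPKM of a library and 16 biliary epithelial genes 0.0111% to 0.130%, with albumin at 21395 to 46222 FPKM, Krt19 at 0.672 to 6.70, Cftr at 0 to 0.304 and Sctr at 0 to 0.0886. The libraries are therefore called by their label without taking the cell type as shown. In bulk RNA, fewer cells of a type and less RNA per cell cannot be told apart, and this holds for every value below.

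After BDL, 8 of the 28 genes rose and none fell. The risen genes were Hmgcs1, Mvk, Mvd, Fdps, Fdft1, Sqle, Lss and Srebf2, which span the pathway from HMG-CoA to lanosterol and include the transcription factor. Their share, 28.6%, stands beside 8.12% of all tested genes called higher, and the 0 called lower stands beside 2.84%. Of the members, 13 (46.4%) were higher in every BDL library than in every sham library, against 21.5% of tested genes, and 1 (Ebp) was lower in every BDL library, against 8.96%. At an unadjusted p under 0.05 there were 15 members (53.6%), against 28.6%. The median difference of the 28 genes was 0.65, beside 0.15 for all tested genes, so single differences are to be read against that shift. The summed FPKM of the 20 enzymes was 1158, 914 and 811 in the sham libraries and 1608, 1535 and 1629 in the BDL libraries.

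**Figure D2:**
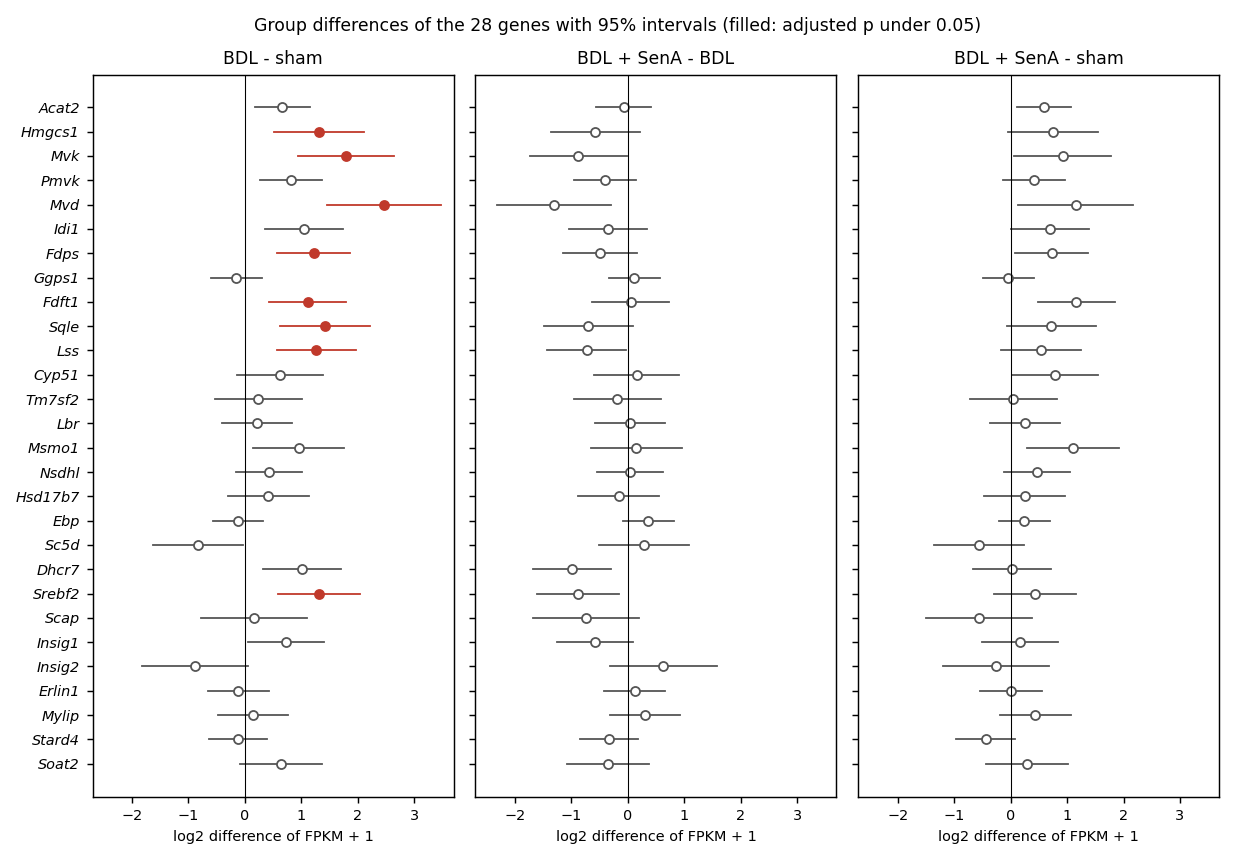
Differences of log2(FPKM + 1) between groups for the 28 genes in pathway order, with 95% intervals from limma; filled points have an adjusted p under 0.05. The 8 filled points, Mvd the farthest to the right at 2.46, are all in BDL against sham.

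At the first steps, Acat2, a cytosolic thiolase that joins acetyl-CoA units, and Hmgcs1 were higher in every BDL library than in every sham library. Hmgcs1 was at 135, 101 and 88.2 FPKM in sham libraries 1 to 3 and at 291.5, 214 and 307 in BDL libraries 1 to 3. The groups did not overlap, and their means were 108 ± 24.3 and 271 ± 49.8 (SD, n = 3 each). Its log2 difference was 1.32 ± 0.36 (limma adjusted p = 0.0405). Acat2 went from 31.8 ± 3.72 to 51.1 ± 6.41 FPKM (n = 3 each), a log2 difference of 0.67 ± 0.22 that missed the threshold (limma adjusted p = 0.0759). Acat2 has a closely related neighbour on chromosome 17, Acat3, and reads could have been divided between them, so its level is uncertain.

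The 3 enzymes that phosphorylate and decarboxylate mevalonate had the largest median log2 difference of any step, at 1.797, which is the value of Mvk. Mvd, mevalonate diphosphate decarboxylase, was at 12.9, 3.78 and 2.39 FPKM in sham and at 32.0, 48.3 and 22.2 in BDL. Every BDL library was above every sham library, although sham library 1 was far above the other sham libraries. The log2 difference was 2.46 ± 0.46 (limma adjusted p = 0.0117), and the means were 5.37-fold apart. Mvk, mevalonate kinase, was at 12.8, 5.44 and 5.21 FPKM in sham and at 22.7, 46.4 and 19.7 in BDL. Here too the groups were apart, with BDL library 2 the highest by a wide margin, and the log2 difference was 1.797 ± 0.39 (limma adjusted p = 0.0187). Pmvk, phosphomevalonate kinase, was at 8.95 to 13.7 FPKM in sham and 19.8 to 21.7 in BDL without overlap. Its log2 difference of 0.81 ± 0.25 was not called (limma adjusted p = 0.0610).

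Among the isoprenoid enzymes Fdps rose, Idi1 lay just outside the threshold and Ggps1 was not called. Fdps, farnesyl diphosphate synthase, was at 178, 127 and 105 FPKM in sham and at 303, 388 and 259 in BDL. All BDL values were above all sham values, with a log2 difference of 1.22 ± 0.30 (limma adjusted p = 0.0269). Idi1, the isomerase that readies isoprene units for joining, was at 24.4 to 28.2 FPKM in sham and 42.1 to 70.5 in BDL. The groups did not overlap and the log2 difference was 1.05 ± 0.32 (limma adjusted p = 0.0563). Ggps1 makes geranylgeranyl diphosphate, which is used for protein prenylation and not for cholesterol. It was the gene with the lowest levels of the 28, at 1.63 to 2.61 FPKM in sham and 1.42 to 2.04 in BDL, and its log2 difference was -0.15 ± 0.20.

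All 3 enzymes from farnesyl diphosphate to lanosterol rose, with a median log2 difference of 1.27. Sqle, squalene epoxidase, an oxygen-dependent and rate-controlling step, was at 41.4, 17.6 and 14.9 FPKM in sham and at 67.8, 64.4 and 52.4 in BDL (log2 difference 1.42 ± 0.36, limma adjusted p = 0.0316). Lss, lanosterol synthase, which closes the ring, was at 12.2, 6.42 and 4.99 FPKM in sham and at 22.8, 19.7 and 15.7 in BDL (log2 difference 1.27 ± 0.32, limma adjusted p = 0.0310). Fdft1, squalene synthase, the first step committed to sterols, was at 23.2, 16.6 and 13.7 FPKM in sham and at 46.5, 40.8 and 30.8 in BDL (log2 difference 1.11 ± 0.31, limma adjusted p = 0.0435). In each of these genes the lowest BDL library was above the highest sham library, and sham library 1 was the highest of its group.

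The 9 enzymes that trim the sterol ring held no called gene, and their median log2 difference was 0.41. Dhcr7, the reductase that makes cholesterol from its direct precursor, was at 32.5, 15.2 and 14.9 FPKM in sham and at 36.1, 47.8 and 38.1 in BDL. The groups did not overlap, but sham library 1 came close to BDL library 1 and the log2 difference of 1.01 ± 0.32 was not called (limma adjusted p = 0.0628). Msmo1, the methyl sterol oxidase, was at 113, 91.9 and 85.1 FPKM in sham and at 227, 137 and 208 in BDL. It had no overlap either, with a log2 difference of 0.95 ± 0.37 (limma adjusted p = 0.118). Cyp51, the lanosterol demethylase, was at 44.6 to 58.4 FPKM in sham and 58.4 to 92.6 in BDL (log2 difference 0.62). Nsdhl, a sterol dehydrogenase, was at 29.1 to 54.1 and 47.7 to 57.0 FPKM (0.42), and Hsd17b7, the keto-sterol reductase, at 10.9 to 21.2 and 17.0 to 22.2 FPKM (0.41). These 3 genes overlapped between the groups. Tm7sf2 and Lbr, which encode sterol reductases of the same step, differed in level, at 64.3 to 92.6 and 3.32 to 5.83 FPKM in sham, and had log2 differences of 0.24 and 0.22. Ebp, the sterol isomerase, was at 106 to 116 FPKM in BDL and 116.5 to 123 in sham, a log2 difference of -0.12. Sc5d, the sterol desaturase that acts just before Dhcr7, was at 164, 158 and 142 FPKM in sham and at 79.7, 51.6 and 153 in BDL. BDL library 3 lay within the sham range and the other BDL libraries far below it, and the log2 difference of -0.84 ± 0.36 was not called (limma adjusted p = 0.155).

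**Figure D3:**
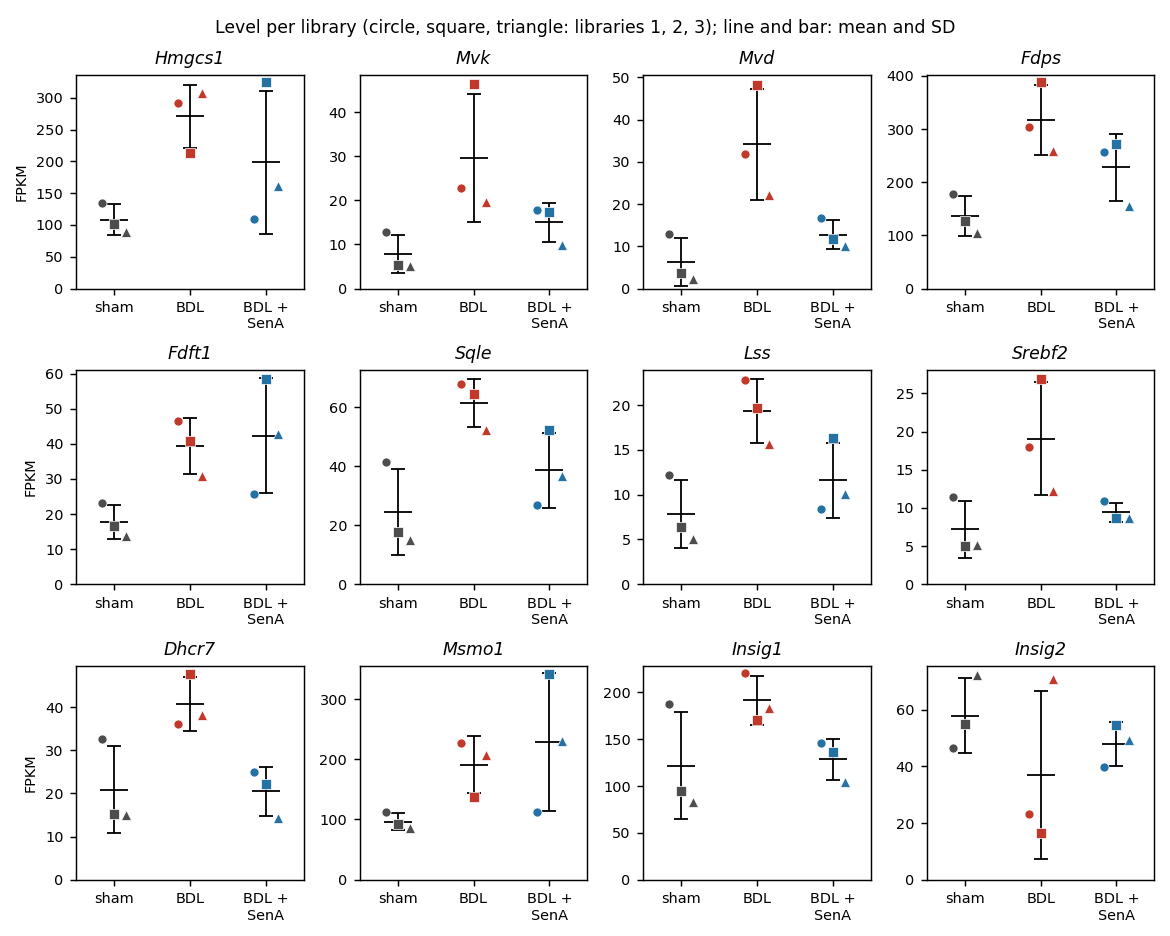
FPKM in each library for the 8 genes called higher in BDL against sham and for Dhcr7, Msmo1, Insig1 and Insig2; circles, squares and triangles are libraries 1, 2 and 3 of a group, and lines and bars give the mean and SD (n = 3). In the 8 called genes every BDL library is above every sham library, and sham library 1 is the highest of its group.

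Of the 6 genes of sensing and control only Srebf2 rose. Sham libraries 1 to 3 held it at 11.5, 4.998 and 5.08 FPKM and BDL libraries 1 to 3 at 18.0, 26.9 and 12.2, with means of 7.18 ± 3.71 and 19.1 ± 7.38 (SD, n = 3 each). Every BDL library was above every sham library, but by a small gap between sham library 1 and BDL library 3, and the log2 difference was 1.32 ± 0.33 (limma adjusted p = 0.0306). Insig1 is itself an SREBP2 target and feeds back on the pathway. It was at 187, 95.2 and 82.9 FPKM in sham and at 221, 171 and 183 in BDL. Sham library 1 lay inside the BDL range and the log2 difference of 0.74 ± 0.31 was not called (limma adjusted p = 0.141). Insig2, the second anchor protein, was at 46.4, 55.1 and 72.4 FPKM in sham and at 23.4, 16.5 and 70.9 in BDL. BDL libraries 1 and 2 were below all sham libraries and BDL library 3 was inside the sham range, with a log2 difference of -0.89 ± 0.43 (limma adjusted p = 0.200). Scap, the escort, was at 36.3, 18.5 and 18.0 FPKM in sham and at 23.3, 37.7 and 19.8 in BDL. Its groups overlapped, and the log2 difference of 0.17 changed sign when the libraries were rescaled to a common median ratio or by quantiles. Erlin1, which takes part in restraining SREBP2 and in the degradation of sterol-controlled proteins, was at 15.8 to 23.2 FPKM in sham and 12.8 to 22.3 in BDL. Mylip, the ubiquitin ligase that removes lipoprotein receptors, was at 2.78 to 4.12 and 2.21 to 4.79 FPKM, and its sign also changed on rescaling. Stard4 carries sterol between membranes and Soat2 forms cholesteryl esters. Stard4 was at 26.1 to 28.9 FPKM in sham and 20.7 to 33.4 in BDL, and Soat2 at 8.56 to 18.6 and 11.8 to 24.7. Their log2 differences were -0.12 and 0.64, both with overlapping groups.

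**Figure D4:**
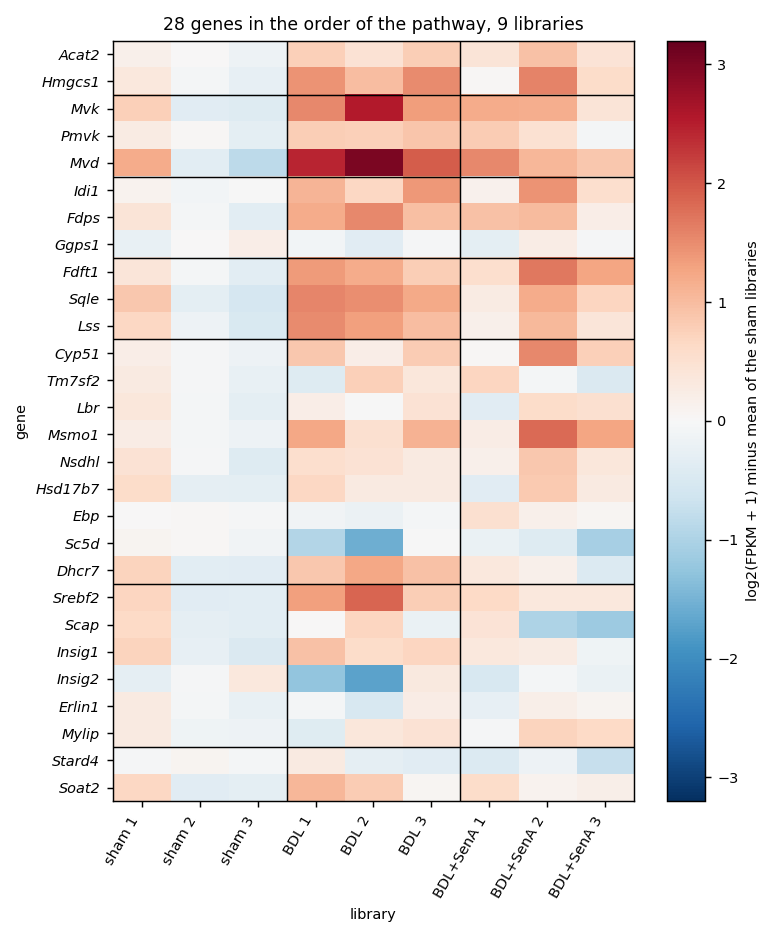
log2(FPKM + 1) of the 28 genes in the 9 libraries, each minus the mean of the sham libraries of that gene; rows follow the pathway and lines divide the steps. Mvd in BDL library 2 is the deepest red, and BDL libraries 1 and 2 are blue for Insig2 and Sc5d where BDL library 3 is not.

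The BDL calls depended on single libraries, as did those over all tested genes. Left out in turn, sham library 2, sham library 3 or BDL library 2 each left 0 of the 8 genes called, and the calls over all tested genes dropped as well, from 8.12% higher to 1.41%, 1.24% and 1.63%. In these fits 12, 11 and 14 members had an unadjusted limma p under 0.05, beside 19.8%, 18% and 19.6% of tested genes. Without BDL library 1, Mvk and Mvd remained, beside 6.11% of tested genes called higher. Without SenA library 1, which takes no part in the difference itself but in the shared spread, 13 members were called, beside 12.8% of all tested genes, with Acat2, Pmvk, Idi1, Msmo1 and Dhcr7 added to the 8. Without BDL library 3, 7 members rose and 2 fell, beside 7.78% of tested genes called higher and 4.79% called lower. The pair that fell was Insig2 (log2 difference -1.49, limma adjusted p = 0.00806) and Sc5d (-1.25, limma adjusted p = 0.0251). The direction of the 8 called genes was the same in all 19 alternative settings. Mvd ranged from 2.04 to 3.06 (adjusted p from 0.00462 to 0.0667) and was called in 16 of them. Mvk was called in 15, Lss and Srebf2 in 14, Fdps and Sqle in 13, and Hmgcs1 and Fdft1 in 10.

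Libraries of 1 group differed in many of the 28 genes. Sham library 1 had the highest value of its group in 24 of them, beside 62.5% of all tested genes, and sham library 3 the lowest in 23, beside 31.8%. No such order was seen in BDL, where libraries 1, 2 and 3 were the highest in 10, 7 and 11 genes and the lowest in 3, 13 and 12. SenA library 2 was the highest of its group in 17 genes, beside 31.4% of tested genes, and SenA library 1 the lowest in 15, beside 44.1%, and the highest in 11. How far a library stood from the other libraries of its group followed the G + C content of the transcript, which ran from 40.1% (Ggps1) to 59.1% (Scap) over the 28 genes. The correlation across the 28 genes was 0.62 for sham library 1, 0.77 for BDL library 2 and 0.67 for SenA library 1, and over 9741 tested genes with a known transcript it was 0.50, 0.67 and 0.25. BDL library 3 and SenA library 2 went the other way, at -0.60 and -0.67. The remaining libraries did so too, sham libraries 2 and 3 at -0.56 and -0.55, BDL library 1 at -0.24 and SenA library 3 at -0.46. Deviations within a group offset each other by construction, so opposite signs among its libraries are not separate results. These correlations are descriptions across genes of 1 library, which are not independent of each other. The group differences had r = 0.47 with G + C for BDL against sham, r = -0.58 for SenA against BDL and r = 0.17 for SenA against sham over the 28 genes, beside 0.32, -0.31 and 0.17 over the tested genes. These comparisons share libraries. Mvd, Srebf2, Pmvk and Mvk had, with Scap, the highest G + C of the 28, at 56.3% to 59.1%.

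**Figure D5:**
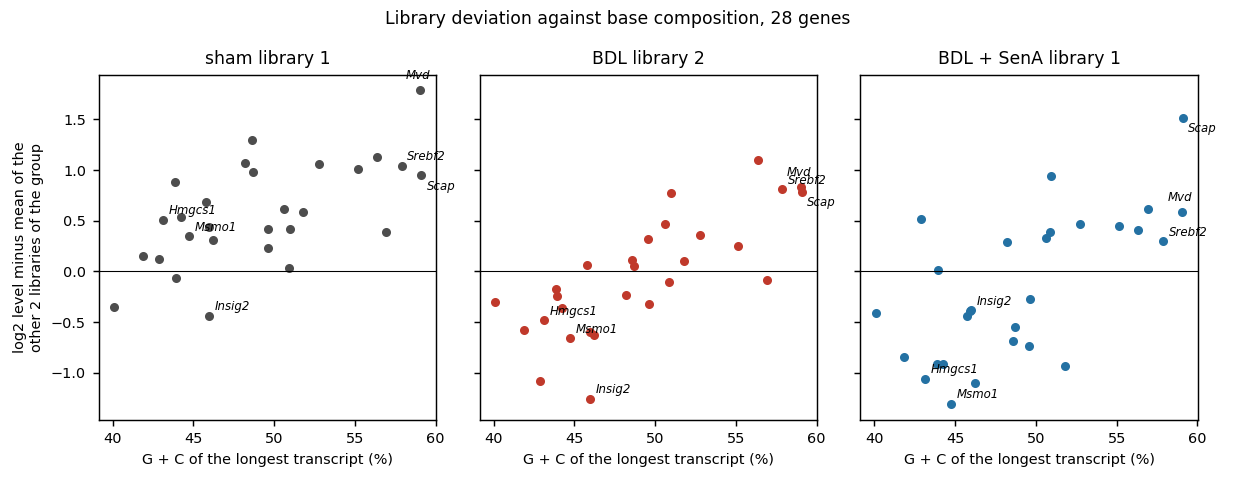
log2 level of each of the 28 genes in 1 library minus the mean of the other 2 libraries of its group, against the G + C content of its longest transcript, for sham library 1, BDL library 2 and SenA library 1. Mvd and Srebf2, of high G + C, lie above 0 and above Msmo1 and Hmgcs1 in each panel, with r = 0.62, 0.77 and 0.67 over all 28 genes.

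When the trend with G + C was removed from each library over all tested genes, a setting added after the data were seen, 11 members rose after BDL, beside 8.91% of tested genes. They were the 8 named above with Acat2 (log2 difference 0.72), Idi1 (1.29) and Msmo1 (1.15). Mvd was then at 2.08 and Srebf2 at 0.97, both still called. After the correction the correlation with G + C over the 28 genes was 0.22 for BDL against sham, -0.38 for SenA against BDL and -0.006 for SenA against sham.

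Markers of other cells moved with BDL too. The summed FPKM of 13 macrophage markers was 328 to 449 in sham and 885 to 1464 in BDL. Of these 13 markers 7 rose, beside 8.12% of tested genes. The 7 neutrophil markers summed to 2.94 to 6.43 and 33.2 to 62.7 FPKM, and the 16 biliary markers to 55.8 to 78.8 and 121 to 634. Most of the biliary sum in BDL was Spp1, osteopontin, and the other 15 markers summed to 37.3 to 54.2 FPKM in sham and 56.4 to 82.5 in BDL. The 19 hepatocyte markers made up 16.7% to 20.5% of the summed FPKM in sham and 16.1% to 19.8% in BDL. Of them 1 rose and 3 fell, beside 8.12% and 2.84% of tested genes. Stellate and fibroblast markers summed to 23.5 and 33.5 FPKM in BDL libraries 1 and 2 and to 125 in BDL library 3, against 77.7 to 114 in sham. Most of the sham sums was Dcn, at 51.2, 84.5 and 74.9 FPKM in sham and at 12.5, 16.7 and 59.5 in BDL. Of these 9 markers 4 had a positive difference after BDL, with none called higher and 2 called lower, beside 2.84% of tested genes called lower. The 7 endothelial markers summed to 42.7, 52.5 and 127 FPKM in BDL libraries 1 to 3, against 90.1 to 103 in sham. Of them 1 had a positive difference after BDL, with none called. BDL libraries 1 and 2 are also those in which Insig2 and Sc5d were low. The part of these cells in the differences of the 28 genes was not tested.

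No member was called in SenA against BDL, in either direction, and 1 of all tested genes was (0.0101%), so the count of 0 is near the background. At an unadjusted limma p under 0.05 there were 5 members (17.9%), Dhcr7, Mvd, Srebf2, Lss and Mvk, against 12.3% of tested genes. All 5 were lower with SenA, and 11 of the 28 members had a positive difference. Markers of other cells differed in this comparison too, with none called. All 9 stellate and fibroblast markers had a positive difference (median 1.12, 7 at an unadjusted p under 0.05), as did all 7 endothelial markers (median 0.46, 2 at an unadjusted p under 0.05). Stellate and fibroblast sums were 23.5, 33.5 and 125 FPKM in BDL libraries 1 to 3 and 108, 258.5 and 152 in SenA libraries 1 to 3. Endothelial sums were 42.7, 52.5 and 127 FPKM in BDL and 106, 170 and 130 with SenA. For both lists BDL library 3 lay inside the SenA range and BDL libraries 1 and 2 below it. None of the 4 tested lymphocyte markers had a positive difference (median -0.57, 2 at an unadjusted p under 0.05). Of 19 hepatocyte markers, 10 had a positive difference and 7 an unadjusted p under 0.05. Positive differences were also found for 8 of 13 macrophage, 3 of 3 tested neutrophil and 5 of 10 tested biliary markers. The part of these markers in the differences of the 28 genes was not tested. Every SenA library was below every BDL library in 6 members (21.4%), Mvk, Mvd, Sqle, Dhcr7, Srebf2 and Insig1, against 14.3% of tested genes, and above in 1 (3.57%), Ebp, against 3.25%. The median difference of the 28 genes was -0.26, beside -0.12 for all tested genes.

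Dhcr7 was at 25.02, 22.2 and 14.2 FPKM in the SenA libraries, below the BDL range of 36.1 to 47.8. It differed from BDL by -0.98 on the log2 scale (95% interval -1.68 to -0.29, limma adjusted p = 0.407), and its mean of 20.5 ± 5.60 FPKM stood beside 20.9 ± 10.1 in sham. Its difference from sham was 0.03 (95% interval -0.67 to 0.72), too wide to show a return to sham. SenA against BDL and BDL against sham share the BDL libraries with opposite sign, so the differences of a gene in them are not independent. Mvd was at 16.7, 11.7 and 9.98 FPKM with SenA, again with no overlap with BDL, and differed by -1.31 (95% interval -2.33 to -0.30, limma adjusted p = 0.407). Srebf2 was at 10.9, 8.68 and 8.68 FPKM, the tightest group of the 3 for this gene. It differed from BDL by -0.89 (95% interval -1.61 to -0.16, limma adjusted p = 0.407). Mvk, at 17.7, 17.4 and 9.89 FPKM, differed by -0.88 (95% interval -1.73 to -0.02), and Lss, at 8.41, 16.3 and 10.01, by -0.73 (95% interval -1.43 to -0.03). Lss overlapped with BDL through SenA library 2. Sqle was at 26.9, 52.1 and 36.7 FPKM and Insig1 at 146, 137 and 104, with log2 differences of -0.70 and -0.58 whose intervals hold 0. After removal of the G + C trend the differences of Dhcr7, Mvd and Srebf2 were -0.94, -1.07 and -0.67 (limma adjusted p = 0.224, 0.250 and 0.254), and again no member was called.

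Among the other members, Scap and Hmgcs1 had differences of -0.73 and -0.57, near those of Lss and Insig1, while others were near 0 or above it, and no difference between these sets of genes was tested. Fdft1 was at 25.7, 58.5 and 43.0 FPKM with SenA, and its difference from BDL was 0.05 (95% interval -0.64 to 0.73). Msmo1 was at 113, 342 and 229.8 FPKM, Cyp51 at 52.2, 149 and 85.6 and Hmgcs1 at 109.55, 324 and 162. In these genes SenA library 2 was above all BDL libraries and SenA library 1 was near the sham values, so that the group ran from sham levels to above the BDL range. Idi1, at 29.0, 72.1 and 38.6 FPKM, had the same order of libraries. Fdps was at 258, 271 and 155 FPKM, with a log2 difference of -0.50 (95% interval -1.15 to 0.16). Scap was at 31.6, 11.0 and 9.81 FPKM, with SenA library 1 far above the rest of its group, and Insig2 at 39.7, 54.8 and 49.2. Such wide intervals, -0.31 to 1.57 for Insig2, do not show that the levels were alike. Acat2, at 42.4 to 61.1 FPKM with SenA, Pmvk, at 10.7 to 20.7, and Nsdhl, at 44.2 to 71.7, also overlapped with BDL. Ebp was at 172, 135 and 127 FPKM, above both other groups, with a log2 difference from BDL of 0.37 (95% interval -0.08 to 0.82). The summed FPKM of the 20 enzymes was 1232, 1844 and 1180.5 with SenA, so that libraries 1 and 3 were below all BDL libraries and library 2 was above them.

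Against sham, no member was called in the SenA libraries either, beside 1.76% of tested genes called higher and 0.405% called lower. At an unadjusted limma p under 0.05 there were 8 members (28.6%), against 23.2% of tested genes. All SenA libraries were above all sham libraries for 5 members (17.9%), Acat2, Idi1, Fdft1, Msmo1 and Ebp, against 17.5%, and below for Sc5d and Stard4 (7.14%), against 12.1%. Fdft1 had the smallest p, with a log2 difference of 1.16 ± 0.31 (limma adjusted p = 0.0639), followed by Msmo1 at 1.10 ± 0.37 (limma adjusted p = 0.107). This comparison shares the sham libraries with BDL against sham and the SenA libraries with SenA against BDL, so the values are set side by side only. Dhcr7 had log2 differences from sham of 1.01 in BDL and 0.03 with SenA, Srebf2 of 1.32 and 0.43, and Mvd of 2.46 and 1.15. Msmo1 had 0.95 and 1.10, and Fdft1 1.11 and 1.16.

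These counts depended on single libraries. The 8 members at an unadjusted limma p under 0.05 became 2 without SenA library 2 or sham library 3 and 3 without sham library 2, with 0 called in each, and 11 without SenA library 1. Over all tested genes the calls, 174 higher and 40 lower as reported, became 0 and 0 without SenA library 2. They were 3 and 2 without sham library 3, and 0 and 1 without sham library 2. The unadjusted counts of these fits were not set beside those of all tested genes. Without SenA library 1, 5 members rose against sham, beside 12.3% of tested genes. Msmo1 had a log2 difference of 1.54 (limma adjusted p = 0.00352), Fdft1 of 1.47 (limma adjusted p = 0.00406), Cyp51 of 1.15 (0.0194), Hmgcs1 of 1.10 (0.0359) and Idi1 of 0.98 (0.0396). Scap fell by 1.07 (limma adjusted p = 0.0496), beside 5.99% of tested genes called lower. In SenA against BDL the count stayed at 0 without it. This library also had the fewest macrophage transcripts of its group, with marker sums of 614, 2088 and 2535 FPKM in SenA libraries 1 to 3, and a lower level of Spp1, at 42.6, 365 and 383 FPKM, while the other 15 biliary markers summed to 44.2, 65.2 and 81.3. The split was not limited to these markers. Fabp1, a hepatocyte marker, was at 7142, 619 and 200 FPKM in SenA libraries 1 to 3, beside 4926 to 8834 in sham. Bdh1, a gene of ketone synthesis, was at 56.8, 15.7 and 9.17 FPKM, beside 50.2 to 56.4 in sham. Neutrophil markers summed to 17.1, 99.0 and 90.3 FPKM. Not every hepatocyte marker was split this way, such as Apoa1 at 13453, 10890 and 16130 FPKM. The part of these genes in the values of library 1 was not tested.

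Genes around the pathway were read from lists that hold none of the 28. Of 12 genes that process SREBP or degrade the pathway's proteins, none was called after BDL and the median log2 difference was 0.16. In this list 3 genes had an unadjusted limma p under 0.05, beside 28.6% of tested genes. Spring1, which supports SREBP processing, was at 1.30 to 2.24 FPKM in sham and 1.97 to 8.26 in BDL (0.94, limma adjusted p = 0.0959). Rnf145, a ligase that acts on SCAP, had 0.79 (limma adjusted p = 0.113) and Ubxn8, a factor of protein removal from the endoplasmic reticulum, 0.54 (limma adjusted p = 0.0959). Of 10 other sterol-responsive genes 2 rose and none fell, beside 8.12% and 2.84% of all tested genes, with a median of 0.77. Lpin1, a phosphatidate phosphatase of lipid synthesis, was at 3.19 to 8.60 FPKM in sham and 7.77 to 24.2 in BDL (1.42 ± 0.45, limma adjusted p = 0.0688). None of 9 tested genes that use isoprenoids was called, with a median of 0.14, and Dhdds, which makes dolichol chains, had the smallest p (0.77, limma adjusted p = 0.0653).

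Of 10 genes of cholesterol export and LXR, the oxysterol-activated receptor, 1 rose and none fell, a share near that of all tested genes, with a median of 0.23. The gene was Abcg1, a sterol exporter abundant in macrophages, at 1.61, 1.36 and 0.799 FPKM in sham and at 3.42, 3.99 and 3.48 in BDL (1.05 ± 0.28, limma adjusted p = 0.0347). Scarb1, the receptor for high-density lipoprotein, had 1.01 ± 0.32 (limma adjusted p = 0.0670). Of 9 tested genes of lysosomal release, cholesteryl esters and oxysterols, 1 rose and 1 fell, beside 8.12% and 2.84% of all tested genes. Npc2, which hands over cholesterol inside the lysosome, went from 19.7 ± 2.64 to 45.0 ± 5.01 FPKM (n = 3 each; 1.15 ± 0.22, limma adjusted p = 0.0117). With SenA it was at 48.5 ± 9.03 FPKM, and it was also called against sham (1.25 ± 0.22, limma adjusted p = 0.0314). Nceh1, a cholesteryl ester hydrolase, fell by 0.997 ± 0.28 on the log2 scale (limma adjusted p = 0.0455). No gene of any of these lists was called in SenA against BDL.

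Ketone synthesis draws on the same acetyl-CoA in mitochondria, and Acat1 and Bdh1 are described from that list. Acat1, the mitochondrial thiolase, was at 117, 156 and 141 FPKM in sham and at 60.3, 53.5 and 52.1 in BDL. The groups were far apart, and it fell by 1.30 ± 0.23 (log2, limma adjusted p = 0.00954). Bdh1, which makes the last ketone body of the route, was at 50.2 to 56.4 FPKM in sham and 8.93 to 30.7 in BDL without overlap, and its log2 difference of -1.82 ± 0.57 was not called (limma adjusted p = 0.0641). With SenA, Acat1 was at 107, 67.3 and 77.3 FPKM, library 1 being the nearest to sham, and it was not called against BDL (0.57 ± 0.23, limma adjusted p = 0.407).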

How the data were processed

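PolyA RNA of 9 mouse libraries was measured, and groups were taken from the sample labels. The authors deposited FPKM values of all genes in 1 table. The submitters' processing notes name HISAT2 2.0.5, featureCounts 1.5.0-p3, DESeq2 1.20.0, fastp and CASAVA 1.8, with mouse build GRCm38 (mm10). The sources used here give neither the order and settings of these tools nor the annotation and the use of strand. FPKM are relative to the library total, so a rise of very abundant genes pushes the other values down. Depth, estimated from the steps between low FPKM, was 27.3 to 33.8 M fragments. Without counts, no count model and no counting interval could be used.

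Values were tested as log2(FPKM + 1), a pseudocount of 1, for the 9884 genes whose mean FPKM reached 1, with limma 3.58.1 in R 4.3.3 (3 groups in 1 linear model, two-sided, empirical Bayes shrinkage with trended variance, intervals at 95%). Adjustment was over all tested genes, and the threshold was 0.05. The script was tested on simulated data. Alternatives were another pseudocount, other filters, scalings, variance settings and fits, the replicate number as a block, each library left out, and, added after seeing the data, removal of the trend with transcript G + C (lowess, span 0.3) alone and with the block. Same-numbered libraries were checked for pairing by the correlation of their deviations from the group means, which was -0.39 to 0.25, so they were not treated as pairs. Promoters are from RefSeq annotation of GRCm38.p6, and the transcripts used for length and G + C are from GENCODE mouse annotation. All 28 members were named, with every library's value for called members and the main control genes, and for other lists at most 3 genes with the smallest p. The members and lists were chosen with earlier results of these data known. A few genes that this rule takes in are not reported here.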

Additional observations from a re-analysis of the deposited data

How the results depend on the processing

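Over 19 alternative settings no called member changed direction. The count of members that rose after BDL was 8 as reported, and 1 (Mvd) with no filter on low genes. It was 5 with median-ratio scaling, 5 with quantile normalization, and 0 to 13 with single libraries left out. Over all tested genes 396 of 16802 were called higher with no filter, and 123 to 1270 of 9884 with single libraries left out. The count of members that fell was 0 to 2 with single libraries left out, beside 30 to 473 of all tested genes. For SenA against sham those counts were 0 to 5 risen and 0 to 1 fallen, beside 0 to 1214 and 0 to 592 of all tested genes. For SenA against BDL 0 members were called under each of the 19 settings. The calls over all tested genes there were 0 to 36 higher and 0 to 26 lower. The median of the 28 genes in BDL against sham ranged from 0.45 (median-ratio scaling) to 0.84 (without sham library 1). Both scalings moved the median of all tested genes in BDL against sham from 0.15 to -0.02 and -0.03, so changes are best read against that shift; the calls over all genes, 803 higher and 281 lower as reported, became 524 and 502 with median-ratio scaling and 452 and 473 with quantile normalization. Under them the sign changed for Scap and Mylip in BDL against sham, for Acat2 (median-ratio only) in SenA against BDL, and for Tm7sf2, Dhcr7 and Erlin1 in SenA against sham; none of these was called. With the replicate number as a block 6 members rose, Hmgcs1 and Fdft1 being lost, beside 669 of 9884 tested genes. With the block and the G + C correction together 8 rose, beside 729 of 9884. Deviations of same-numbered libraries correlated at -0.39 to 0.25. The causes of these changes were not tested. With 3 libraries a group, intervals of single members are wide, such as -0.31 to 1.57 for Insig2 in SenA against BDL, so small differences could not be shown at this size.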
